A study of Saccharomyces cerevisiae with 8 samples.

Results

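On spotted arrays that compared 2 yeast hybrids with their parents, 86 of 6528 features departed from the parental level in opposite directions in the hybrids. A feature is a pair of neighbouring spots, odd number then even, whose log2 ratios in the authors' value table were averaged. It was kept when its log2 ratio of hybrid over parental mix had one sign on all 4 arrays of hybrid Sce2950 and the other sign on all 4 arrays of hybrid Sce2965. Of the 86, 43 features (0.659% of all) lay over the mix in Sce2950 and under it in Sce2965. They are called the Sce2950-high features here. The other 43 (0.659%), the Sce2965-high features, lay under the mix in Sce2950 and over it in Sce2965. These orders are described apart. The values that chose the features are given as a description, with no test, and tests were made only on arrays that the choice had not used.

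The groups were the Saccharomyces cerevisiae hybrid strain Sce2950, set on 4 arrays against a mix of RNA from its parents sce2709 and sce2898, and the hybrid strain Sce2965, set on 4 arrays against a mix from sce2713 and sce2902. Both hybrids and all mixes were total RNA of cultures from a single colony in early log phase in diluted YPD, a rich medium, per the labels. Replicates 1 and 2 of each hybrid lay on early slides and replicates 3 and 4 on later slides, by slide number. The hybrid carried Cy5 on replicates 1 and 3 of Sce2950 and on replicates 2 and 3 of Sce2965, and Cy3 on the others. The early slides of each hybrid were a slide series of its own, and the later slides of both hybrids belonged to the same series. Each hybrid is a single strain, so a difference between hybrids is a difference between these strains and their mixes. The labels give no ploidy, no marker alleles and no environment for any parental line.

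A hybrid of divergently adapted lines carries alleles that were selected in different backgrounds. Where such alleles act independently and additively, a transcript in the hybrid is expected near the blend of its parents, which is what an RNA mix of the parents approximates. Epistasis, the dependence of an allele's effect on the alleles at other loci, can move a transcript above or below that blend. The title of the series names antagonistic epistasis. The features described here departed upward in one cross and downward in the other. Each cross had its own mix, so a ratio can differ between crosses through the hybrids or through the parents.

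The array files name 0 of the 13056 spots, and a table linking spots to genes was not used here. Each feature is identified by its spots and its place on the slide, no gene function is assigned to them, and no probe sequence was at hand to print. For the same reason control spots could not be told apart from gene spots, and the strains were not checked against marker genes.

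Some facts of the arrays bear on every value. Median spot intensity lay between 159.4 and 454.8 in the hybrid channel and between 115.5 and 312.7 in the mix channel. Spot brightness correlated across features at 0.978 to 0.989 among the later slides, and at 0.597 to 0.70 between slide series, so single-channel levels were compared only among the later slides. On the later slides, log2 ratios of arrays with opposite dye orientation correlated between -0.61 and -0.40. Pairs of arrays with equal orientation, which are of different hybrids, correlated at 0.59 and 0.63. Ratios on these slides thus went with the dye orientation, and each hybrid had 1 array of each orientation there. These are ratios of bulk cultures, in which a change in the share of cells that express a transcript and a change in the RNA per cell cannot be told apart.

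Opposite departures were about as frequent as departures in the same direction. Against 43 features of each opposite order, 48 features (0.735%) lay over the mix on all 8 arrays and 49 (0.751%) lay under it on all 8. The orders differed in size. When every array had to lie at least 0.1 from 0, 15 features (0.23%) were Sce2950-high and 4 (0.0613%) were Sce2965-high. At that size 6 features (0.0919%) lay over the mix on every array of either hybrid and 11 (0.169%) lay under it on every array.

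**Figure D1:**
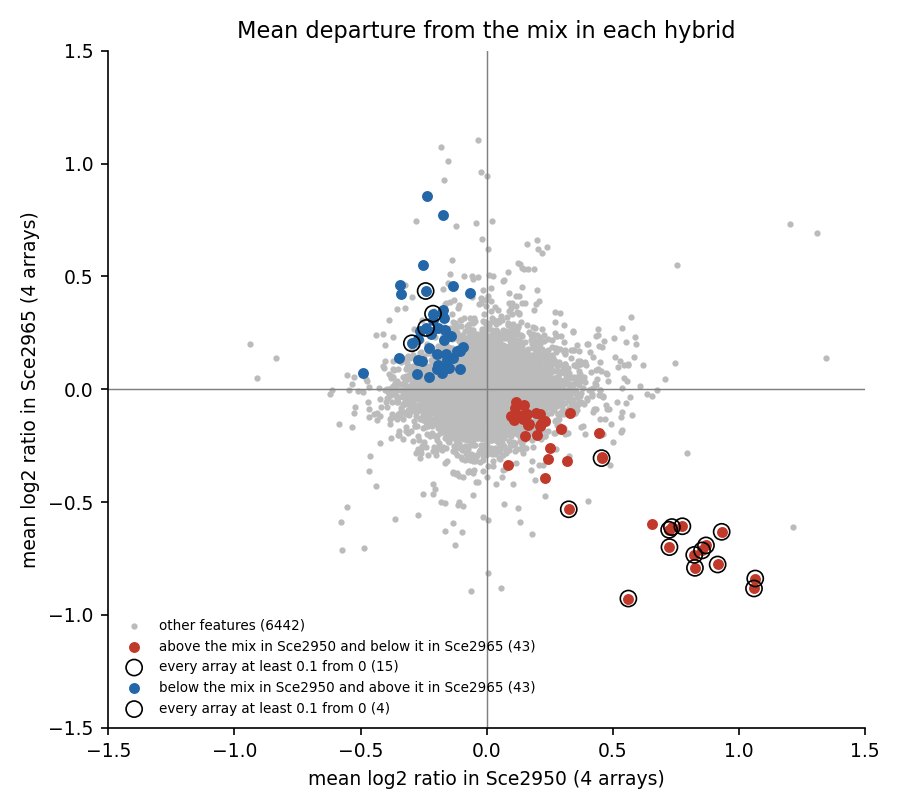
Mean log2 ratio of hybrid over mix in Sce2950 (horizontal) against that in Sce2965 (vertical), 4 arrays each, 1 point per feature. The Sce2950-high features (43, red) reach the lower right, the Sce2965-high features (43, blue) stay near the centre at the upper left, and circles mark the 15 and 4 features with every array at least 0.1 from 0.

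The Sce2950-high features departed by a moderate amount in the median and by much more at the top. Their mean log2 ratio lay between 0.09 and 1.07 in Sce2950, with a median of 0.25, which is 1.19-fold over the mix. In Sce2965 it lay between -0.93 and -0.06, with a median of -0.26, or 1.20-fold below. The standard deviation over the 4 arrays had a median of 0.15 in each hybrid (n = 4 arrays each), and both means exceeded their own standard deviation in 36 of the 43. The remaining 7 had a mean within 1 standard deviation of 0 in at least 1 hybrid, although the sign held on every array.

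By array, the median over the 43 was 0.28, 0.30, 0.21 and 0.30 on replicates 1 to 4 of Sce2950. On replicates 1 to 4 of Sce2965 it was -0.24, -0.20, -0.27 and -0.33. Replicate 3 of Sce2950 stood lowest among the arrays of its hybrid. The single highest ratio, 2.05, was on replicate 4 of Sce2950, and the single lowest, -1.83, on replicate 3 of Sce2965. Both were at spots 7349 and 7350. The other arrays of that feature lay between 0.14 and 0.24 in Sce2950 and between -0.35 and -0.06 in Sce2965.

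The difference of Sce2950 minus Sce2965 lay between 0.18 and 1.94 in these 43 features, with a median of 0.51. It split them into a group with large and a group with small differences. In 14 features the difference was 1.26 or more, and the next one down was 0.86. The 1.26 was at spots 7349 and 7350, where the difference was 0.33 on the early slides and 2.18 on the later ones. Among all 6528 features 17 had a difference above 1 in this direction, and these 14 are among them. In 21 of the 43 the difference was under 0.5. Features with a large departure in one hybrid had a large departure in the other: across the 43, the means in Sce2950 and Sce2965 correlated at a Pearson r of -0.91 and a Spearman rho of -0.83. The points share arrays and slides within a hybrid, and the rule fixed their signs but not their sizes.

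**Figure D2:**
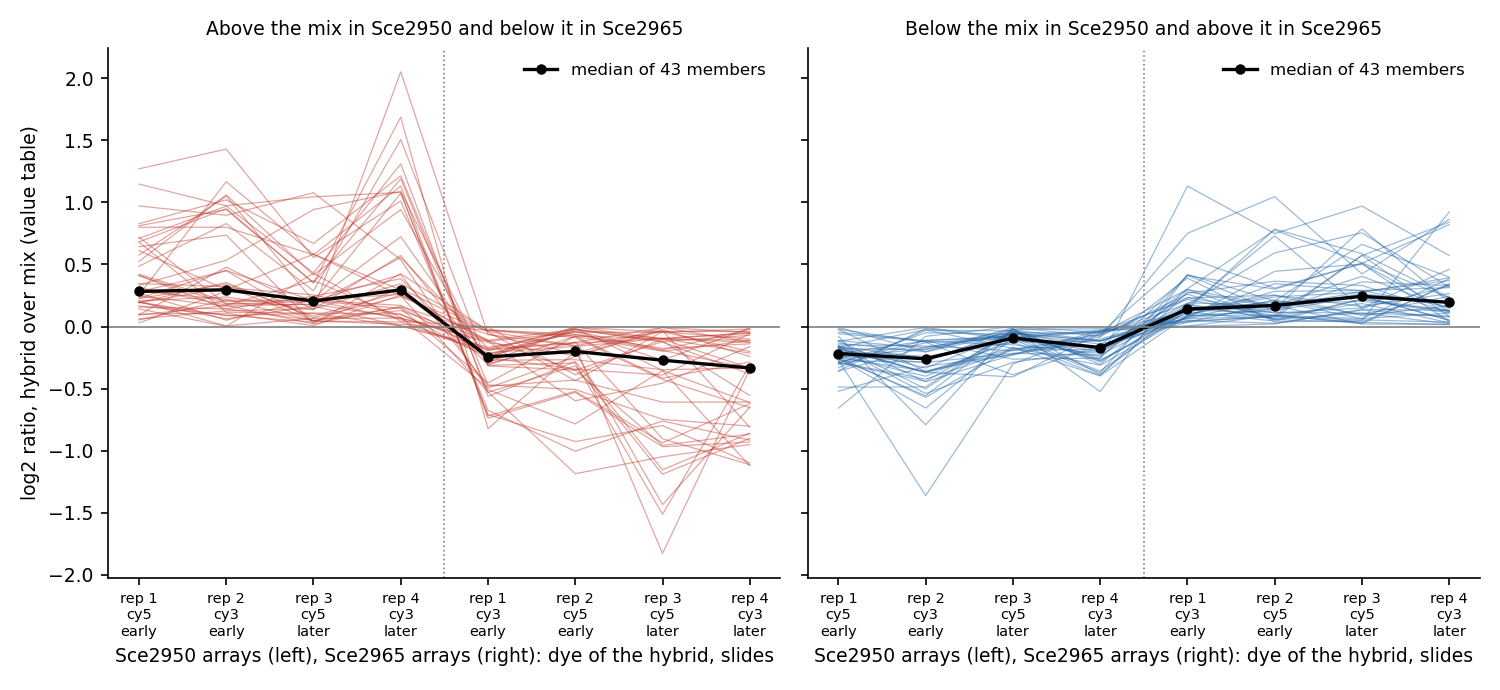
Log2 ratio of hybrid over mix on each of the 8 arrays (Sce2950 left of the dotted line, Sce2965 right), 1 thin line per feature, with the dye of the hybrid and the slides under each array. Black points are the medians of the 43 features of each order, which lie between 0.21 and 0.30 in Sce2950 and between -0.33 and -0.20 in Sce2965 in the left panel, and between -0.26 and -0.093 in Sce2950 and between 0.14 and 0.24 in Sce2965 in the right panel.

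The 15 features with every array at least 0.1 from 0 form the core of this order. Their mean log2 ratio had a median of 0.82 in Sce2950, which is 1.77-fold over the mix. In Sce2965 the median was -0.70, which is 1.62-fold under it. Their difference lay between 0.76 and 1.94, with a median of 1.56, and 13 of the 15 were above 1. By array their median was 0.71, 0.95, 0.43 and 1.08 on replicates 1 to 4 of Sce2950, and -0.53, -0.43, -0.94 and -0.87 on replicates 1 to 4 of Sce2965. Replicate 3 was again the lowest array of Sce2950, and the later slides were the lower arrays of Sce2965. Each of the 2 spots showed the order by itself on all 8 arrays in 14 of the 15, against 1 of the other 28.

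The feature at spots 11881 and 11882 led the Sce2950-high order by its weakest array. It was 1.15, 0.97, 1.04 and 1.08 on replicates 1 to 4 of Sce2950, and -0.71, -0.93, -0.80 and -1.10 on those of Sce2965. The ratios of each hybrid lay close together, and the nearest arrays of the hybrids were far apart. The mean of 4 arrays was 1.06 ± 0.0729 (SD) in Sce2950, which is 2.09-fold over the mix. The mean of 4 arrays in Sce2965 was -0.88 ± 0.170 (SD), which is 1.84-fold under it. The difference was 1.94 over all arrays, 1.88 on the early slides and 2.01 on the later ones. It lies in the print block of block row 11 and block column 4, in row 12, columns 9 and 10.

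The feature at spots 733 and 734 was 1.27, 1.43, 0.55 and 1.01 on replicates 1 to 4 of Sce2950, and -0.67, -1.004, -0.76 and -0.91 on those of Sce2965. Replicate 3 was the low array of Sce2950, as in the median of the order, and the hybrids did not overlap. The mean ± SD of 4 arrays was 1.07 ± 0.382 in Sce2950 and -0.84 ± 0.149 in Sce2965, a difference of 1.90. The difference was 2.19 on the early slides and 1.62 on the later ones. The feature lies in block row 1 and block column 3, in row 12, columns 13 and 14, away from the first one.

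The Sce2965-high features had smaller departures. The mean log2 ratio of these 43 lay between -0.49 and -0.07 in Sce2950, with a median of -0.20, or 1.15-fold below the mix. In Sce2965 it lay between 0.05 and 0.86, with a median of 0.22, or 1.16-fold above. The standard deviation over 4 arrays had a median of 0.13 in Sce2950 and 0.11 in Sce2965, and both means exceeded it in 34 of the 43.

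By array, the median over these 43 was -0.22, -0.26, -0.093 and -0.17 on replicates 1 to 4 of Sce2950, and 0.14, 0.17, 0.24 and 0.19 on those of Sce2965. Replicate 3 of Sce2950 was nearest to 0 here too. The difference of Sce2950 minus Sce2965 lay between -1.09 and -0.20, with a median of -0.46. In 28 of the 43 its size was under 0.5, and in 1 it was above 1, where 7 of all 6528 features had a difference beyond 1 in this direction. The sizes in the hybrids did not go together: across the 43, the means in Sce2950 and Sce2965 correlated at a Pearson r of -0.0056 and a Spearman rho of -0.037.

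Only 4 features of this order had every array at least 0.1 from 0. Their differences lay between -0.68 and -0.50, and both spots of each showed the order alone. Differences of this order beyond these, up to 1.09 in size, were in features with some array within 0.1 of 0.

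The feature at spots 8561 and 8562 led the Sce2965-high order by its weakest array. It was -0.23, -0.29, -0.22 and -0.23 on replicates 1 to 4 of Sce2950, and 0.14, 0.78, 0.59 and 0.23 on those of Sce2965. The arrays of Sce2950 were nearly equal, whereas in Sce2965 both arrays with the hybrid in Cy5 were higher than both with it in Cy3. The mean ± SD of 4 arrays was -0.24 ± 0.0327 in Sce2950 and 0.44 ± 0.303 in Sce2965, a difference of -0.68. The part of the dye in this spread was not tested. The feature lies in block row 8 and block column 4, in row 9, columns 1 and 2.

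The feature at spots 12285 and 12286 was -0.17, -0.54, -0.29 and -0.19 on replicates 1 to 4 of Sce2950, and 0.14, 0.25, 0.16 and 0.27 on those of Sce2965. Replicate 2 of Sce2950 was the farthest from 0. The mean ± SD of 4 arrays was -0.30 ± 0.170 in Sce2950 and 0.20 ± 0.0645 in Sce2965, a difference of -0.50. When ratios were recomputed from the scanner files with 1 loess curve per array in place of the table's values, the difference was -0.89, and with loess within print blocks it was -0.54. The feature lies in block row 12 and block column 2, in row 3, columns 13 and 14.

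Membership by sign has a sharp edge. Of the Sce2950-high features, the closest to leaving had an array at 0.0019 from 0, with a difference of 0.36. The closest feature outside had its 1 wrong array at 0.00056 from 0, with a difference of 0.38. In all, 141 features showed this order on exactly 7 of the 8 arrays, and 59 of them were within 0.1 of 0 on the remaining array. The wrong array was replicate 3 of Sce2950 in 29 of the 141 and replicate 2 in 8. Of the members, 28 had their weakest array within 0.1 of 0.

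In the Sce2965-high order the closest member had an array at 0.00051 from 0, with a difference of -0.29. The closest feature outside had its wrong array at 0.0017 from 0, with a difference of -0.33. Here 155 features had the order on exactly 7 arrays, 65 of them within 0.1 of 0 on the remaining one, and replicate 3 of Sce2950 was the wrong array in 35. Of the members, 39 had their weakest array within 0.1 of 0. The 2 orders thus differ in how many members stand clear of the edge, 15 and 4.

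The early and the later slides were then used against each other, since features chosen on the one set can be read on the other. On the 4 early arrays 400 features (6.13%) were Sce2950-high. Of these, 43 (10.75%) had the same order on the 4 later arrays, against 2.7% of all features. The Sce2965-high order was shown there by 1 of the 400 (0.25%), against 2.83% of all features. The later difference was above 0 in 65.5% of the 400, against 49.4% of all features. Its median over the 400 was 0.06, against -0.0020 over all features.

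Of the 414 features (6.34%) with the Sce2965-high order on the early arrays, 43 (10.4%) kept it on the later arrays, against 2.83% of all features. The other order was shown there by 8 of the 414 (1.93%), against 2.7% of all features. The later difference was below 0 in 69.6% of the 414, against 50.6% of all. Choosing on the later arrays and reading on the early ones gave 43 of 176 (24.4%, against 6.13% of all) for the Sce2950-high order. For the Sce2965-high order it gave 43 of 185 (23.2%, against 6.34% of all). In both readings the 43 are the members, so the converse count repeats the same overlap and is no second check. Across the 43 Sce2950-high members the early and later differences correlated at a Pearson r of 0.77, and across the 43 Sce2965-high members at 0.52, as a description over features that share arrays.

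**Figure D3:**
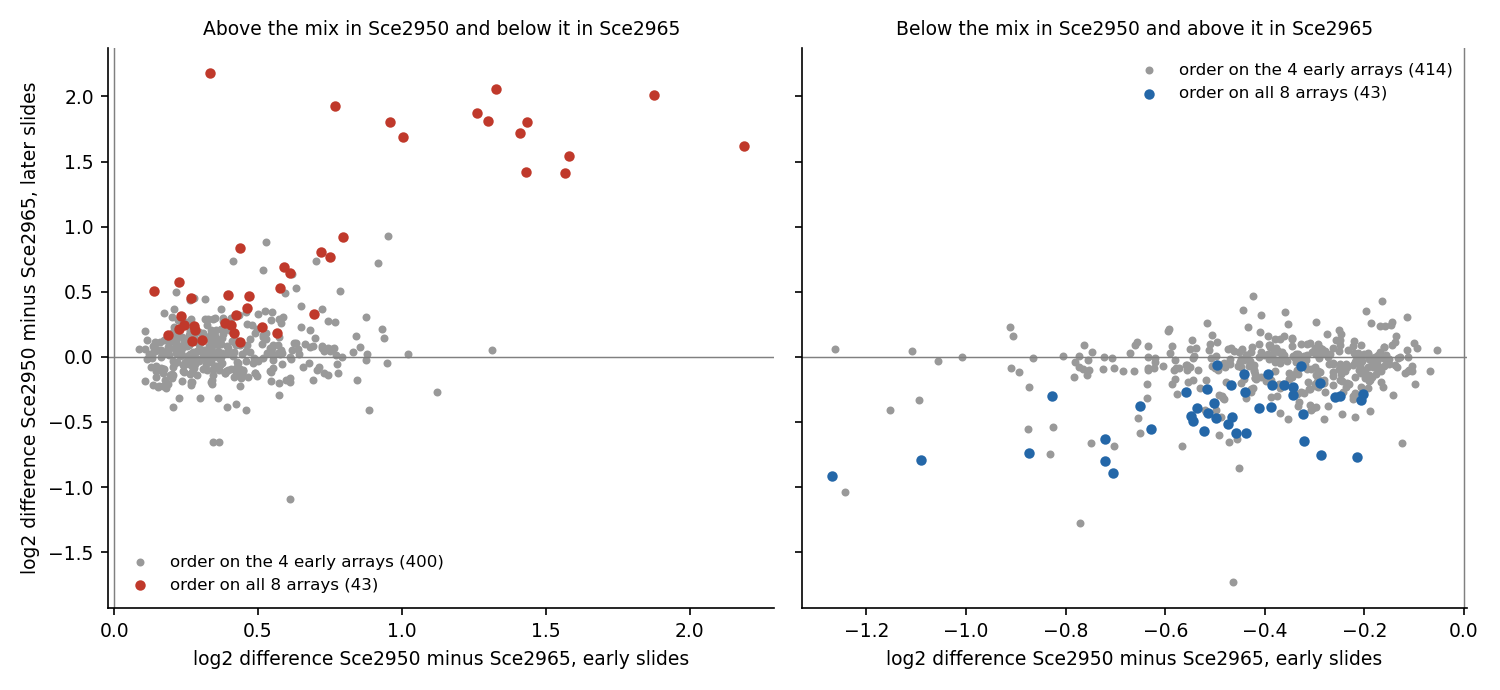
Log2 difference of Sce2950 minus Sce2965 on the early slides (horizontal) and on the later slides (vertical), in the value table, for features with the order on the 4 early arrays (grey, 400 left and 414 right). Colour marks the 43 of each order on all 8 arrays. A group of red points stands apart above 1 on the later axis, and the grey points of both panels gather near 0 on that axis.

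The test of the held-out reading was a limma fit to ratios recomputed from the scanner files of the later slides, with the difference of Sce2950 minus Sce2965 and a dye term, over 6498 features with Benjamini-Hochberg adjustment. Of 398 features with the Sce2950-high order on the early slides, 29 (7.29%) were higher in Sce2950 at an adjusted p under 0.05, where 0.893% of all features tested were called in that direction, and 0 were lower. Their later differences lay between 0.51 and 2.46, with a median of 1.34. Of the 29, 22 are members, and the other 7 did not have the order on all 4 later arrays in the value table. At an unadjusted p under 0.05 there were 66 of 398 (16.6%, against 4.12% of all) higher and 6 (1.51%, against 5.23% of all) lower. The 66 were 24 without the dye term. Without that term and with 1 array left out as well, there were 22 without replicate 3 of Sce2950, 21 without its replicate 4, 28 without replicate 3 of Sce2965 and 23 without its replicate 4.

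Of 412 features with the Sce2965-high order on the early slides, 31 (7.52%) were lower in Sce2950 on the later slides (limma adjusted p under 0.05), where 1.03% of all were called in that direction, and 0 were higher. Their differences lay between -1.34 and -0.51, with a median of -0.63, so the called features of this order differed by less than those of the Sce2950-high order. Of the 31, 16 are members, and the other 15 did not have the order on all 4 later arrays in the value table. The fit tests the difference between the hybrids, so a departure from the mix in only 1 hybrid can give a call. The fit has 1 residual degree of freedom and leans on 17.6 prior ones. With normexp at offset 0 in place of 50 the calls were 14 for the Sce2950-high order and 0 for the Sce2965-high order. Without the dye term 0 features of either order were called. With that term left out and 1 array left out as well, the Sce2950-high order had 12 calls without replicate 3 of Sce2950, 0 without its replicate 4, 8 without replicate 3 of Sce2965 and 12 without its replicate 4. The Sce2965-high order had 0, 0, 1 and 0 in the same settings.

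The converse test chose on the later slides and read the early ones, where hybrid and slide series cannot be told apart. In that limma fit 0 of 176 Sce2950-high and 0 of 185 Sce2965-high features passed the adjusted threshold, where 0% of all 6528 did. At an unadjusted p under 0.05, 20 of the 176 (11.4%) were higher in Sce2950, where 0.781% of all were, and 0 were lower. Of the 185, 7 (3.78%) were lower in Sce2950, where 0.597% of all were, and 0 were higher. These unadjusted counts depended on the setting, most of all the 7. It was 16 in the value table, 19 with print-tip loess and 1 with normexp at offset 0. With the dye term and 1 array left out, it was 2 without replicate 1 of Sce2950, 1 without its replicate 2, 9 without replicate 1 of Sce2965 and 19 without its replicate 2. The 20 of the Sce2950-high order lay between 15 and 31 over all settings run, with the 31 without the dye term and replicate 1 of Sce2965. A p-value here measures the spread between arrays, since the labels do not say which culture an array came from.

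Each array was also left out in turn, and features with the order on the other 7 arrays were read on it. For the Sce2950-high order, 59.7% to 84.3% had the sign of their hybrid on the array left out, where 48.6% to 51.4% of all features had that sign. The lowest share was on replicate 3 of Sce2950 (43 of 72 features) and the highest on its replicate 2 (43 of 51). For the Sce2965-high order the shares ran from 55.1%, again on replicate 3 of Sce2950 (43 of 78), to 79.6% on replicate 1 of Sce2965 (43 of 54). Replicate 3 of Sce2950 was thus the array on which either order was most often lost. In each reading the features kept were the 43 members, and those lost had the order on exactly 7 arrays. The shares thus restate the counts at the edge of the rule and are no separate check.

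Single-channel levels on the later slides let the hybrids and the mixes be set side by side. They are log2 levels after background correction, loess and scaling between arrays, and 1 array of each dye orientation stands behind each mean. The members were chosen on these same arrays by the log2 ratio of the value table, whose normalization is not given. The hybrid level minus the mix level is a ratio recomputed from the scanner files, and it can differ from the table's ratio. By the recomputed ratios (normexp at offset 50, global loess), 20 of the 43 Sce2950-high and 13 of the 43 Sce2965-high members met the rule. Both ratios come from the same scans, so the choice itself pushes the channels in opposite directions. Their directions are thus no separate result, and the values are a description. In the Sce2950-high features, the hybrid channel was higher in Sce2950 in 38 of 43, with a median difference of 0.48. The mix channel was lower in the mix of Sce2950 in 35 of 43, with a median difference of -0.33. The hybrid channel differed by more than the mix channel in 32 of the 43, and in 30 of the 43 Sce2965-high features. The share over all features is not given beside these channel counts. They are a description, and whether the hybrids or the mixes account for the order was not tested. Across all features the median was -0.0045 in the hybrid channel and 0.00015 in the mix channel.

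The 15 Sce2950-high features with every array at least 0.1 from 0 were also chosen by the value table's ratio. The hybrid channel was higher in Sce2950 in all 15, by 0.33 to 1.71 with a median of 1.30. The mix channel was lower in the mix of Sce2950 in all 15, by a difference between -0.76 and -0.26 with a median of -0.48. The hybrid RNA of Sce2950 had a median level of 11.38 in these features and that of Sce2965 one of 9.85, while the mixes stood at 10.37 and 10.85.

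At spots 11881 and 11882 the hybrid channel was at 10.33 and 10.02 on replicates 3 and 4 of Sce2950, against 8.72 and 8.59 on those of Sce2965. The mix channel was at 9.24 and 9.09 for the mix of Sce2950, against 9.39 and 9.62 for the mix of Sce2965. The hybrids were thus the outer levels, and both mixes lay between them. At spots 733 and 734 the hybrid channel was at 9.81 and 10.12 in Sce2950 and at 8.80 and 9.02 in Sce2965, and the mix channel was at 9.29 and 8.95 beside Sce2950 and at 9.64 and 9.89 beside Sce2965.

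In the Sce2965-high order the channels differed by less in the median. The hybrid channel was lower in Sce2950 in 37 of 43 features, with a median difference of -0.33. The mix channel was higher in the mix of Sce2950 in 28 and lower in 15, with a median difference of 0.095. At spots 8561 and 8562 the hybrid channel was at 11.70 and 11.67 on replicates 3 and 4 of Sce2950, against 12.45 and 11.64 on those of Sce2965. The mix channel there was at 11.94 and 11.97 beside Sce2950, against 11.98 and 11.43 beside Sce2965, so the channels overlapped between the crosses. At spots 12285 and 12286 the hybrid channel was at 11.93 and 11.81 in Sce2950, against 12.93 and 12.98 in Sce2965. The mix channel was at 12.36 and 12.02 beside Sce2950, against 12.59 and 11.98 beside Sce2965. There the hybrid channel set the crosses apart on both later arrays and the mix channel did not.

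**Figure D4:**
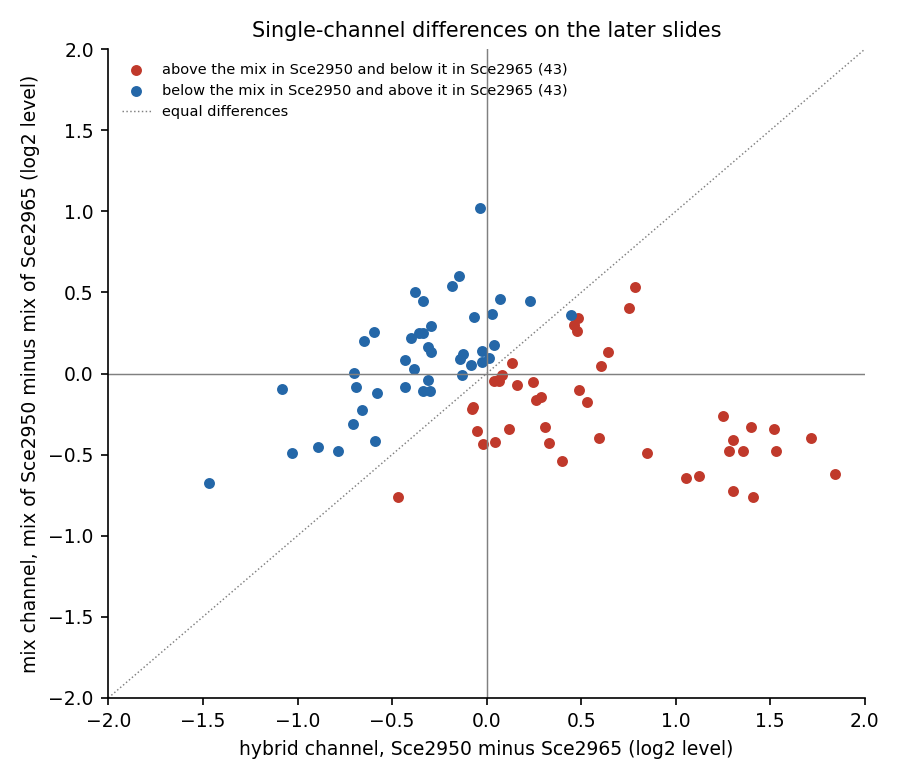
Difference of Sce2950 minus Sce2965 in the hybrid channel (horizontal) and of their mixes in the mix channel (vertical), as log2 levels on the later slides, 1 point per feature (43 of each order). Points on the dotted line would have equal differences. A group of red points lies at the right and below 0, with the hybrid channel over 1 higher in Sce2950 and the mix channel lower.

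The features of both orders were bright, a property that the rule did not use. Mean log2 intensity over both channels had a median of 9.59 in each order, against 7.64 for all features, and 38 of 43 (88.4%) in each order were brighter than the median of all. The 15 features with every array at least 0.1 from 0 had a median of 10.92, and all 15 were brighter than the median of all. Features that lay over the mix on all 8 arrays were bright as well, with a median of 9.17, and those that lay under it on all 8 had a median of 8.83. Across the Sce2950-high features the size of the difference correlated with brightness at a Pearson r of 0.69 and a Spearman rho of 0.64 (n = 43), and across the Sce2965-high features at 0.43 and 0.47 (n = 43). The part of brightness in membership was not tested.

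**Figure D5:**
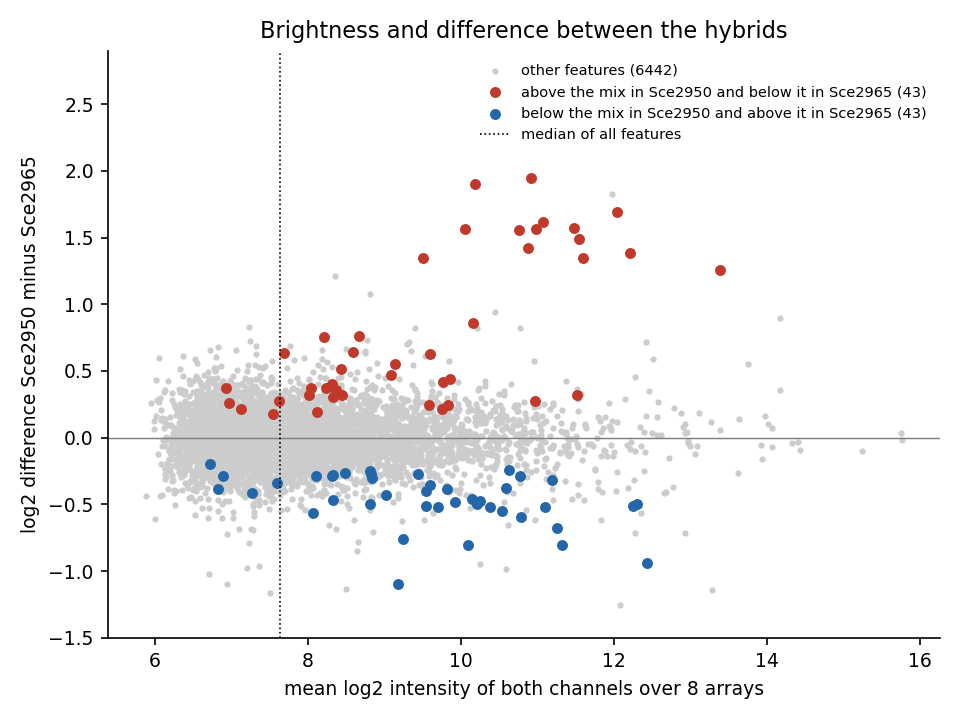
Mean log2 intensity of both channels over 8 arrays (horizontal) against the log2 difference of Sce2950 minus Sce2965 (vertical), 1 point per feature. The dotted line is the median brightness of all features, 7.64, and 38 of the 43 features of each order lie to its right.

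Members of each order lay in many print blocks. The Sce2950-high order lay in 26 of the 48 print blocks with 1 pair of features printed next to each other, and its 15 clearest features in 10 blocks with 0 such pairs. Some of these 15 shared a block. In block row 1, block column 1 held spots 139/140 and 143/144, both in row 9, and spots 161/162. Block column 3 held spots 679/680 and 733/734. In block row 11, block column 1 held spots 10883/10884 and 11067/11068. Block column 4 held spots 11873/11874 and 11881/11882, both in row 12. The part of place on the slide was not tested. The Sce2965-high order lay in 32 blocks with 0 such pairs. Of the members, 0 had a spot at or above an intensity of 65000 on any array and 0 had a spot that the scanner software had marked to be ignored, against 4 and 85 of all features. The gap between the log2 ratios of the duplicate spots had a median of 0.12 in the Sce2950-high order, 0.10 in the Sce2965-high order and 0.082 in the 15 clearest Sce2950-high features, against 0.16 for all features.

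Ratios of the Sce2950-high features went with the dye on the later slides of Sce2950 in the median. The log2 ratio with the hybrid in Cy5 minus that in Cy3 had a median of -0.14 in Sce2950 and -0.00070 in Sce2965 for the Sce2950-high order, and of 0.066 and 0.029 for the Sce2965-high order. In the 15 clearest Sce2950-high features it was -0.53 in Sce2950, between -1.34 and 0.54, and -0.039 in Sce2965, between -1.20 and 0.77. Replicate 3 of Sce2950, the low array of these 15, is the later array with Cy5 on the hybrid, and the part of the dye was not tested. Both orientations gave the order, since the rule requires it.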

How the data were processed

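The value table deposited by the authors gives log2 ratios, hybrid over mix, centred near 0 on each array (column medians between -0.0062 and 0.0084); base and direction were read by comparison with the scanner files, and the sources used here do not give its normalization. It correlated with print-tip loess ratios at 0.902 to 0.984. The deposited scanner files hold spot intensity and local background intensity per channel, not background subtracted, per the file headers. Columns of the hybrid channel are also intensities, per the file headers. They were entered under other units in the processing here because of the file layout. Channel 1 held the mix and channel 2 the hybrid, per the labels.

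Spots 2k-1 and 2k were averaged, giving 6528 features with 0 missing values, and signs were read in the value table. For fits and single-channel levels, limma 3.58.1 in R 4.3.3 applied normexp with offset 50 and global loess, spots marked to be ignored were left out, and levels were scaled between arrays by Aquantile. Fits (lmFit, eBayes, two-sided, Benjamini-Hochberg at 0.05) were tested on simulated data. The simulated differences were larger than the difference of any member over all arrays, and the noise was set below the spread of the data. Recovery there checks the code and not the performance of the fit on these arrays. Arrays were grouped by title. Their small number limits the precision. The named features are the first 2 of each order by their weakest array. Members and lists were chosen with earlier results of these data known, and 14 gene lists could not be matched to spots. Alternatives changed background, normalization, spots, brightness, size, dye term, block and arrays.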

Additional observations from a re-analysis of the deposited data

Results flagged for a closer look

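Each array of Sce2950 went one way and each array of Sce2965 the other in the features named in the report, which is how they were chosen, so the difference was not tested. The log2 difference of Sce2950 minus Sce2965 was 1.94 for the feature of spots 11881/11882 and 1.90 for that of spots 733/734. It was -0.68 for the feature of spots 8561/8562 and -0.50 for that of spots 12285/12286. The medians over the members went opposite ways in the same manner, with a difference of 0.51 for the Sce2950-high features and -0.46 for the Sce2965-high features.

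An array was flagged among those of its hybrid. In the median over the 43 Sce2950-high features, replicate 3 of Sce2950 was at 0.21, against 0.28 to 0.30 on the other arrays of Sce2950. Its gap to the nearest array was 0.86 of the range of the 4 arrays, above Dixon's critical value for 4 values. These medians come from the values that chose the features, so the critical value served as a flag and not as a test. The group was 1 of 12 groups of arrays examined, and chance flags about 5% of groups whose values were not selected in this way.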

How the results depend on the processing

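The median difference of the members kept its direction in all settings run. With arrays left out or slide sets taken alone, the rule fixed that direction in advance. The other settings reprocessed the same scans that chose the members, so the direction is no separate check. The median difference moved by more than the spread between arrays only for the Sce2950-high features, to 0.74 with normexp at offset 0. For these features it lay between 0.43 and 0.56 with 1 array left out. For the Sce2965-high features it stayed between -0.46 and -0.39 with 1 array left out. Counts of members moved more. For the Sce2950-high order, 28 features met the rule with normexp at offset 50 and global loess (20 of them members), 26 with median centring, 28 without background subtraction, 15 where both spots had to show the order and 15 at a size of 0.1. For the Sce2965-high order the counts were 21 (13 members), 16, 25, 17 and 4, with 23 for plain subtraction and 23 for normexp at offset 0. With 1 array left out they were 51 to 72 and 54 to 78, since fewer signs are required. They passed 1.5 times the full count without replicate 3 of Sce2950 (72 and 78), for the Sce2950-high order also without replicate 4 of Sce2950 (68) or replicate 3 of Sce2965 (67), and for the Sce2965-high order without replicate 4 of Sce2965 (69). Print-tip loess gave 45 and 50. The share of left-out readings kept in the Sce2965-high order was 68.9% over the 8 arrays and 59.8% with global loess.

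The later-slide test called 14 features of the Sce2950-high order with normexp at offset 0, 19 with plain subtraction and 0 with no dye term. With the dye term and 1 array both left out it called 0 to 12. For the Sce2965-high order it called 12 with print-tip loess, 0 with normexp at offset 0, 5 with plain subtraction, 0 with no dye term, and 0 to 1 with the dye term and 1 array both left out. The cause was not tested. The early-slide test called 0 in all settings run. Replicate numbers are shared by the hybrids but mark no shared culture in the labels. Deviations of arrays with the same number correlated at -0.0003 and -0.0020 for replicates 1 and 2 and at 0.68 and 0.67 for replicates 3 and 4, which share a dye orientation. On the later slides the replicate block is the same design column as the dye term, so its counts of 29 and 31 equal those of the main setting by construction and are no further check. Among the named features, spots 12285 and 12286 moved most, to between -1.04 and -0.42. Spots 8561 and 8562 did not show the order on all 8 arrays in 1 of 6 normalizations of the scanner files. With features under the median brightness left out, 38 of 43 members remained in each order.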
